A study of Leucocroton havanensis with 4 samples.

Results

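In Leucocroton havanensis, 148 transcript contigs were counted in both root libraries and in shoot without nickel but were nearly or wholly missing from shoot with nickel. They were chosen by level. A contig had to reach at least 1 CPM (reads per 1000000 counted reads of a library) in both root libraries and in shoot without nickel. Its CPM in shoot with nickel then had to be at most 1/32 of the lowest of those 3 levels. Of the 65936 contigs listed, 23095 met the first condition and are called eligible here, and the 148 were 0.641% of them. The low level in shoot with nickel is therefore the rule itself, and it is described without a test.

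Leucocroton havanensis is a shrub of the Euphorbiaceae endemic to Cuba and a nickel hyperaccumulator, a plant that stores nickel in its living tissues at levels toxic to most species. Plants that store metal this way take it up in the root, load it into the xylem and sequester it in the shoot, so root and shoot transcripts are usually compared side by side. A contig is a stretch of transcript sequence put together from short reads, and 1 gene can give several contigs when its alleles or copies differ in sequence.

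The plantlets were grown in vitro for 6 weeks after germination on Murashige and Skoog agar, and the labels give no genotype, line or number of pooled plantlets. There were 4 groups with 1 library each, namely shoot and root with nickel, and shoot and root without nickel. The growth text gives 500 mg/L NiSO4 in identical words for all samples, and the dose is taken to belong to those labelled with nickel. The library of shoot with nickel is marked in the labels as a re-analysis of an earlier deposited sample, and no other library carries that mark, so in shoot the nickel treatment and the origin of the library cannot be told apart. The contigs carry identifiers without gene names, sequences or functions in the material used here, so no role is given to any of them and defining genes of root or shoot could not be looked up. In bulk tissue, fewer cells of a type and less RNA per cell cannot be told apart.

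The 4 libraries held between 55660570 and 98108920 counted reads, with the largest total in shoot with nickel. A contig at 1 CPM corresponds to about 98.1 reads there, and a count of 0, set at a floor of 3 reads, allows a level of up to 0.0306 CPM. Depth was thus greatest in the library in which the contigs were missing. Even numbers made up 55.5% to 61.6% of counts from 1 to 20, so some read pairs may count as 2, and all intervals given cover counting error only and are then too narrow.

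The absence was close to complete for most of the set. In shoot with nickel, 100 of the 148 contigs (67.6%) had no read at all, 21 had 1 read, 12 had 2 reads, 9 had 3 to 6 reads and 6 had more, up to 33 reads. Together they received 167 reads in shoot with nickel, against 70439 that the lowest of their other 3 levels would have given at that depth, or 0.237%. In each of the other libraries the same contigs received far more, with 88962 reads in root with nickel, 80754 in shoot without nickel and 99445 in root without nickel. For the 100 contigs at 0 reads, the level in shoot with nickel was at least 33.5-fold to at least 901-fold below the lowest other level, with the floor of 3 reads in place of 0. The reads found were a similar share of those expected at high and low abundance, at 0.244% for the 74 more abundant contigs and 0.207% for the 74 less abundant ones. A count of 0 was found in 39 of the more abundant 74 (52.7%) and in 61 of the less abundant 74 (82.4%).

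**Figure D1:**
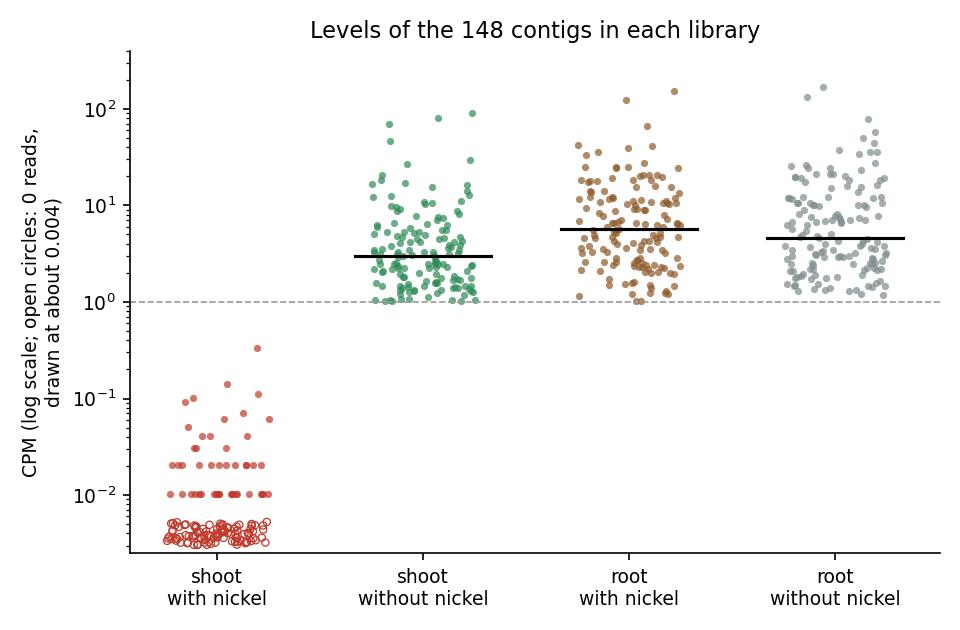
Level of each of the 148 contigs in the 4 libraries, in CPM on a log axis; each point is a contig, open circles are contigs with 0 reads drawn at about 0.004, bars are medians and the dashed line is 1 CPM. Every point in shoot with nickel lies below 1 CPM, with 0.336 CPM as the highest, whereas the rule placed all points of the other libraries at 1 CPM or more.

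The most abundant of these contigs over the other 3 libraries was Lhav_v2_contig_6840. It had 9 reads (0.0917 CPM) in shoot with nickel, 8478 reads (152 CPM) in root with nickel, 3948 reads (46.5 CPM) in shoot without nickel and 10182 reads (170.3 CPM) in root without nickel. Shoot with nickel alone was low, at 606-fold below shoot without nickel on TMM-scaled library sizes (95% exact counting interval 319 to 1327). The next most abundant was Lhav_v2_contig_9369, at 6 reads (0.0612 CPM) in shoot with nickel, 6881 reads (124 CPM) in root with nickel, 7607 reads (89.6 CPM) in shoot without nickel and 8002 reads (134 CPM) in root without nickel. Its level was similar in the 3 libraries where it was present, and it stood 1753-fold lower in shoot with nickel than in shoot without nickel (805 to 4777). Both stayed within 1.5-fold in root, with log2 ratios of root with over root without nickel of -0.31 (-0.35 to -0.27) and -0.26 (-0.31 to -0.21).

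The contigs near the limit of the rule were few. The 3 just inside it stood at 1/33.8, 1/35.0 and 1/37.1 of their lowest other level, with 14, 3 and 33 reads in shoot with nickel. The 3 just outside stood at 1/28.1, 1/27.8 and 1/26.7, with 18, 66 and 267 reads. Between 1/32 and 1/16 lay 14 eligible contigs, and between 1/16 and 1/8 lay 26. Another 112 lay between 1/8 and 1/4. Inside the rule, 8 lay between 1/64 and 1/32 and 8 between 1/128 and 1/64, so the numbers showed no gap at 1/32. With shoot without nickel as the low library, 16 lay between 1/32 and 1/16, so a thinly filled range was not particular to shoot with nickel.

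With each of the other libraries taken as the low one, the same rule found fewer contigs. It gave 6 of 22831 eligible contigs (0.0263%) for root with nickel, 43 of 23649 (0.182%) for shoot without nickel and 3 of 23015 (0.013%) for root without nickel. At 1/4 or less stood 300 contigs in shoot with nickel and 338 in shoot without nickel. Of those 300 contigs, 49.3% were at 1/32 or less in shoot with nickel, compared with 12.7% of the 338 in shoot without nickel. The corresponding shares were 16.7% of 36 in root with nickel and 15.8% of 19 in root without nickel. At a count of exactly 0, 100 contigs were found in shoot with nickel, 5 in root with nickel, 19 in shoot without nickel and 1 in root without nickel. These are counts of single libraries and have no replicate check.

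**Figure D2:**
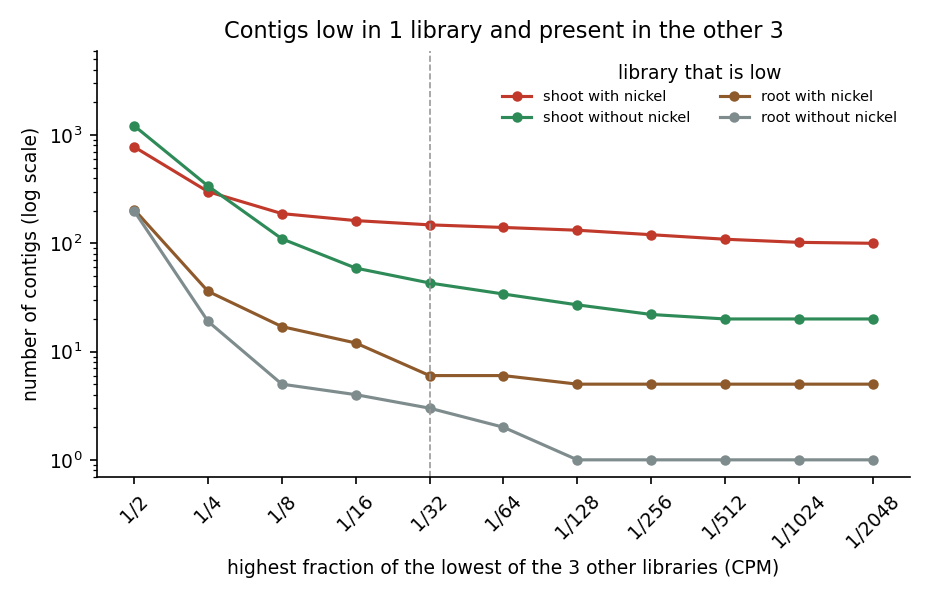
Number of contigs (log axis) present at 1 CPM or more in 3 libraries and at or below a given fraction of the lowest of them in the remaining library, drawn for each library as the low one; the dashed line is the 1/32 of the rule. The line of shoot with nickel has 188 contigs at 1/8, 148 at 1/32 and 100 at 1/2048, and that of shoot without nickel has 110, 43 and 20. All of the 100 and 19 of the 20 had 0 reads. With the floor of 3 reads, the 100 are known only to lie at least 33.5-fold to at least 901-fold below, so 1/2048 is not resolved.

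**Figure D3:**
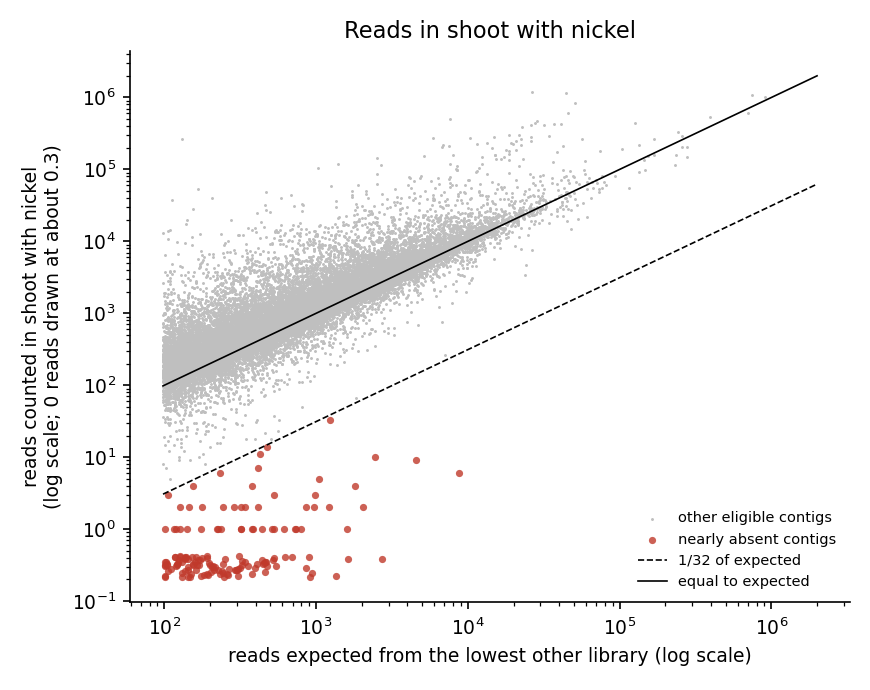
Reads counted in shoot with nickel against the reads expected there from the lowest of the 3 other levels, both on log axes; grey points are eligible contigs outside the set, red points are the 148, the dashed line is 1/32 of expected and the solid line is equality. The 148 lie at 0 to 33 reads where 100.5 to 8789 were expected, and few grey points lie between the 2 lines close to the dashed one.

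Where they were present, the contigs were of low to moderate abundance. In root with nickel their median level was 5.64 CPM, with the middle 50% from 2.62 to 11.6 CPM. In shoot without nickel the median was 3.01 CPM (1.67 to 5.53), and in root without nickel it was 4.62 CPM (2.47 to 11.9). Medians over all eligible contigs were higher, at 13.2 CPM for root with nickel, 10.8 CPM for shoot without nickel and 12.9 CPM for root without nickel. Averaged over these 3 libraries, 39 of the 148 (26.4%) reached 10 CPM, against 57.6% of the eligible contigs, and 2 reached 50 CPM. Among 5 equal classes of eligible contigs from low to high abundance, the set made up 1.34%, 0.953%, 0.628%, 0.195% and 0.0866%. The share fell at each step, and the class of highest abundance, above 44.0 CPM, held 4 contigs of the set. Of all counted reads, the 148 contigs made up 1.70e-04% in shoot with nickel, against 0.16% in root with nickel, 0.0951% in shoot without nickel and 0.166% in root without nickel.

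Root levels of these contigs were compared with and without nickel by a rule of size. A contig was counted as differing when the log2 ratio of root with over root without nickel was at least 2 in size and its exact 95% interval excluded folds below 1.5. That was so for 0 of the 148, against 0.143% of the eligible contigs and 2.65% of the 60628 contigs tested, those that reached 10 reads in some library. At the share of the eligible contigs, 148 contigs would give 0.211 such cases, so the count of 0 does not set these contigs apart. The median log2 ratio was -0.15 for the set and -0.12 for the other eligible contigs, a difference of -0.032. Another scaling of the libraries shifts both medians alike.

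Within that limit the root ratios of the set were spread more widely than those of other eligible contigs. They lay within 1.5-fold for 107 of the 148 (72.3%), compared with 88.6% of the other eligible contigs and 64.8% of all contigs tested. At least 2-fold higher in root with nickel were 7 contigs (4.73%), against 1.02% of eligible and 10.9% of tested contigs. At least 2-fold lower were 4 (2.70%), against 1.71% and 7.64%. Set against all contigs tested, the set was thus not the more widely spread. The set was also less abundant than the eligible contigs as a whole, and the part of abundance in the wider spread was not tested. Within the 5 abundance classes from low to high, the median absolute log2 ratio was 0.33, 0.34, 0.42, 0.62 and 0.29 for the set and 0.29, 0.26, 0.23, 0.20 and 0.21 for the eligible contigs. It was larger for the set in all 5 classes, although the upper 2 classes held 9 and 4 contigs of it. No test was made, since each group had 1 library.

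The contig with the highest root ratio was Lhav_v2_contig_37511. It had no reads in shoot with nickel, 1160 reads (20.8 CPM) in root with nickel, 159 reads (1.87 CPM) in shoot without nickel and 428 reads (7.16 CPM) in root without nickel. Without nickel it was 3.30-fold higher in root than in shoot, short of the 4-fold of the size rule. Its log2 ratio of root with over root without nickel was 1.39 (95% exact counting interval 1.23 to 1.56). Lhav_v2_contig_6808 followed with 2 reads (0.0204 CPM) in shoot with nickel, 443 reads (7.96 CPM) in root with nickel, 561 reads (6.61 CPM) in shoot without nickel and 175 reads (2.93 CPM) in root without nickel. Its log2 ratio in root was 1.29 (1.04 to 1.56), and unlike the contig before it, it was more abundant in shoot than in root without nickel.

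The lowest root ratio belonged to Lhav_v2_contig_6889, with 2 reads (0.0204 CPM) in shoot with nickel, 1382 reads (24.8 CPM) in root with nickel, 294 reads (3.46 CPM) in shoot without nickel and 3423 reads (57.2 CPM) in root without nickel. The log2 ratio in root was -1.35 (-1.44 to -1.26), so this contig was lower with nickel in root, while its low level in shoot with nickel was set by the rule. The second lowest, Lhav_v2_contig_64187, had no reads in shoot with nickel, 69 reads (1.24 CPM) in root with nickel, 192 reads (2.26 CPM) in shoot without nickel and 151 reads (2.52 CPM) in root without nickel. Its log2 ratio of -1.15 rested on few reads (-1.61 to -0.75). Across the whole set, the counting interval of the root ratio lay above 1 for 38 contigs (25.7%) and below 1 for 58 (39.2%). Among eligible contigs the shares were 18.4% above and 45.5% below, so the excess below 1 was also present in the background.

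Without nickel, the set leaned towards root. The median log2 ratio of root over shoot was 0.44 for the set and 0.064 for the other eligible contigs, a difference of 0.37. The lean was not particular to the set. Eligible contigs that stood between 1/32 and 1/4 in shoot with nickel, 152 in number, had a median of 0.58. At least 4-fold higher in root by the same size rule were 16 of the 148, against 5.6% of eligible contigs and 12.3% of all 60628 contigs tested. At least 4-fold lower in root, that is higher in shoot, were 5, against 6.33% of eligible contigs and 10.1% of those tested. As shares of the set these are 10.8% and 3.38%. The median was higher for the set than for the eligible contigs in each of the 5 abundance classes, at 0.24, 0.79, 1.16, 2.84 and 0.72 against -0.17, 0.046, 0.071, 0.11 and 0.35. Shoot without nickel was the lowest of the 3 libraries for 105 of the 148 contigs (70.9%), and for 13157 of the 23095 eligible contigs. The rule sets a low level in a shoot library, so a root-biased contig may meet it more easily, and this was not tested.

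At the root end stood Lhav_v2_contig_3411, with 1 read (0.0102 CPM) in shoot with nickel, 1980 reads (35.6 CPM) in root with nickel, 2627 reads (43.9 CPM) in root without nickel, against 192 reads (2.26 CPM) in shoot without nickel. Its log2 ratio of root over shoot without nickel was 4.06 (3.86 to 4.29). The contig with the lowest root ratio, Lhav_v2_contig_6889, came next with 3.83 (3.67 to 4.01). At the shoot end, Lhav_v2_contig_60892 had 2 reads (0.0204 CPM) in shoot with nickel, 72 reads (1.29 CPM) in root with nickel, 80 reads (1.34 CPM) in root without nickel, against 953 reads (11.2 CPM) in shoot without nickel. Its log2 ratio was -3.25 (-3.63 to -2.95), so a contig counted mostly in shoot without nickel was nearly missing from shoot with nickel. Lhav_v2_contig_11524 showed the same pattern, with 11 reads (0.112 CPM) in shoot with nickel, 587 reads (10.5 CPM) in root with nickel, 259 reads (4.33 CPM) in root without nickel, against 2305 reads (27.1 CPM) in shoot without nickel. Its log2 ratio of root over shoot was -2.85 (-3.05 to -2.67), and in root it was higher with nickel by a log2 ratio of 1.13 (0.92 to 1.35).

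**Figure D4:**
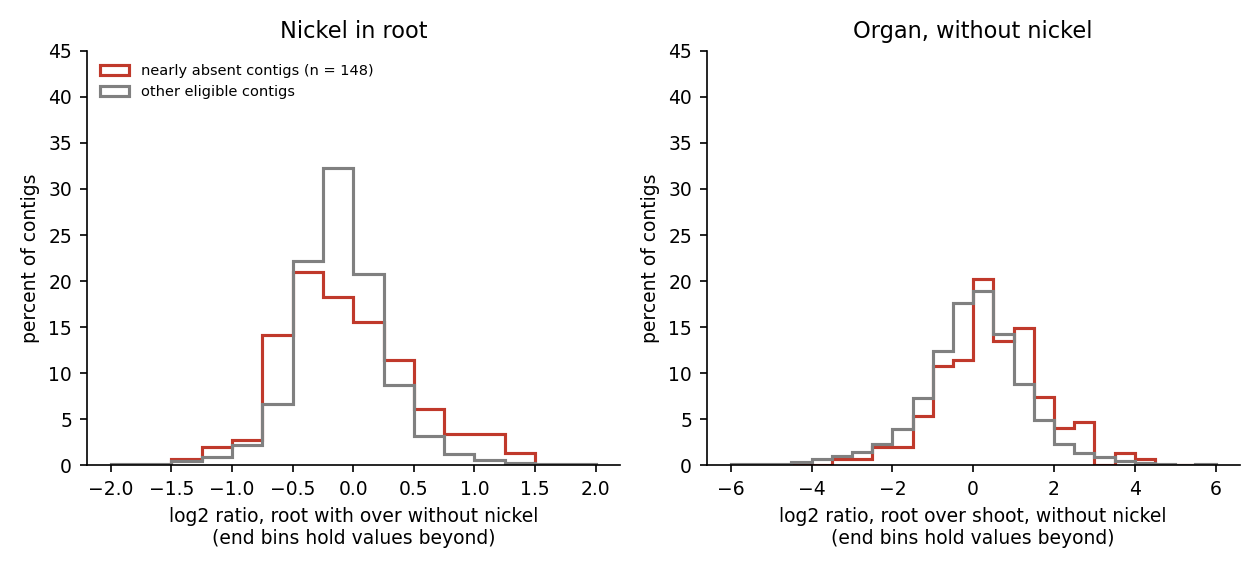
Distribution of log2 ratios on TMM-scaled library sizes for root with over root without nickel (left) and root over shoot without nickel (right), as percent of contigs per bin, for the 148 contigs (red) and the other eligible contigs (grey); the end bins also hold values beyond the axis. On the left the red line is broader, with medians of -0.15 in the set and -0.12 in the others; on the right it lies further towards root, with medians of 0.44 and 0.064.

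Across the 3 libraries where they were present, the levels of the set varied more than those of eligible contigs. The highest over the lowest CPM had a median of 2.25 in the set (middle 50% from 1.65 to 3.55) and of 1.86 among eligible contigs (1.41 to 2.84). It was at most 2 for 56 of the 148 (37.8%) and for 55.6% of eligible contigs. In the 5 abundance classes from low to high, the medians were 1.89, 2.68, 3.26, 8.33 and 2.86 in the set and 1.73, 1.92, 1.87, 1.77 and 2.06 among eligible contigs.

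The contig identifiers end in a number from 1 to 65936, and the set was unevenly placed along these numbers. How the numbers were given is not stated in the sources used here. Contigs with high numbers had fewer reads, with a Spearman correlation across contigs of -0.85 between number and reads in shoot with nickel, -0.68 in root with nickel, -0.81 in shoot without nickel and -0.70 in root without nickel. From number 63865 on, the files changed in character. Of the 2072 contigs from there to the end, 1749 (84.4%) had no read in shoot with nickel, against 0.916% of the contigs before it. In root with nickel none of them was without reads, and the lowest count was 4. Without nickel, 58.2% of them had no read in shoot and 11.7% had none in root. The first 200 contigs of this block had a median of 142 reads in root with nickel and 97 in root without nickel, after medians of 12.5 and 8 in the 200 contigs just before it.

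Of the 148 contigs, 29 (19.6%) lay in this last block of numbers, which held 51 eligible contigs, 0.221% of all. Thus 56.9% of the eligible contigs of the block belonged to the set, compared with 0.516% of those before it. The block was located by its zero counts in shoot with nickel, so its share of the set is a description and shares its data with the rule. A count of 0 was found for 24 of the 29 contigs in the block (82.8%) and for 76 of the 119 before it (63.9%). The 29 were the less abundant, with a median of 2.71 CPM over the 3 other libraries and a highest of 8.75 CPM, against 5.79 CPM and 123 CPM for the 119. Their levels were also the more even, with a median of highest over lowest CPM of 1.89 in the block and 2.50 before it. The lean towards root was found before the block, with a median log2 ratio of root over shoot without nickel of -0.05 in the block and 0.68 before it. Root ratios with over without nickel lay within 1.5-fold for 86.2% of the 29 and 68.9% of the 119.

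The contigs next in number to the 119 before the block were counted in shoot with nickel to very different depths. Taking the 10 contigs on each side, the median reads of these neighbours in shoot with nickel had a median of 400 over the 119, a lower quartile of 84.8 and a lowest value of 2. For 105 of the 119 (88.2%) none of these neighbours was at 0. Zero counts were rare there in any case, at 0.916% of all contigs before the block. The like share for the neighbours of other contigs was not calculated. In the whole set 2 pairs had consecutive numbers, 64010 with 64011 and 64194 with 64195, and both pairs lay in the last block.

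**Figure D5:**
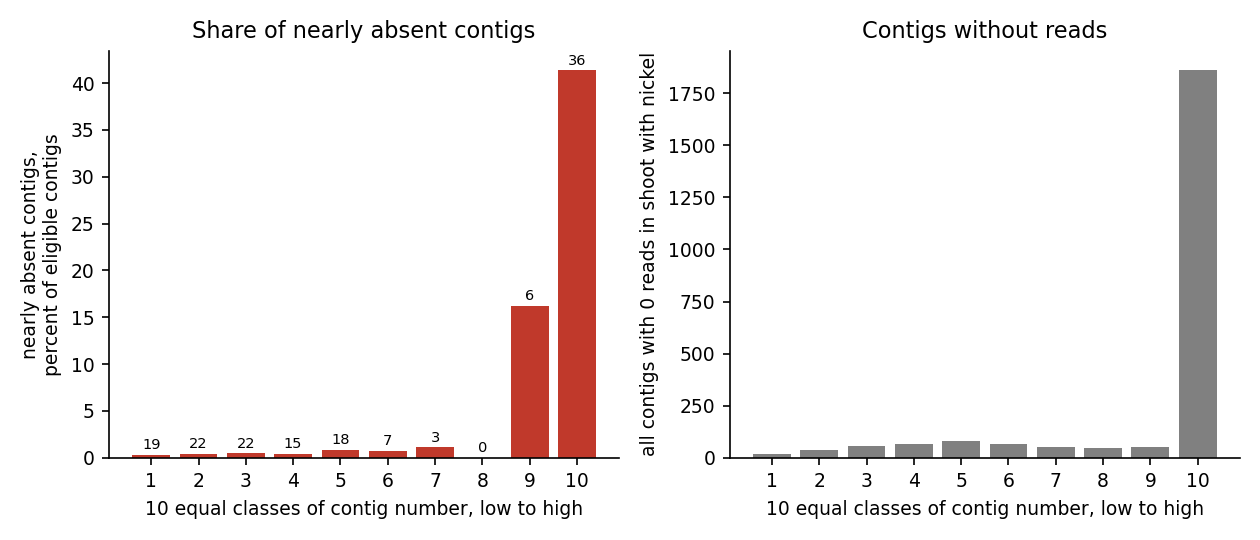
Share of eligible contigs that belong to the set (left, percent, with the number of contigs above each bar) and number of all contigs with 0 reads in shoot with nickel (right), in 10 equal classes of contig number from low to high. The last class holds 36 of the 148 contigs, 41.4% of its 87 eligible ones, and 1860 contigs without reads in shoot with nickel.

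Listed contigs with few reads were rarer in the libraries with nickel than in those without. These are raw reads, not scaled for the library totals, and how the list of contigs was made is not stated. Only 27 of the 65936 had under 5 reads in the 2 libraries with nickel combined, whereas 5319 had under 5 reads in the 2 libraries without nickel combined. All 148 contigs had at least 1.02 CPM in root with nickel, as the rule required.

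Counts per contig hold neither DNA nor read sequence. For these 148 contigs, a gene silenced in shoot with nickel and an allele or copy not carried by the plantlets of the re-analysed library cannot be told apart. The zero counts, the small number of intermediate levels and the block of contig numbers share their data with the rule, and none of the values given here separates these cases.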

How the data were processed

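RNA of 1 shoot and 1 root library with nickel and 1 of each without nickel was analysed. Per the labels' protocols, the kit was Illumina TruSeq Stranded mRNA. The deposited files hold, per the file headers, 1 raw read count per contig and library, with no normalization. Not given in the sources used here are the aligner, the counting program, the assembly, any filter and how reads were shared among near-identical contigs. Levels are CPM by column total, as the rule uses. Ratios used TMM sizes over the 60628 contigs that reached 10 reads in some library (edgeR 4.0.16, R 4.3.3), a prior count of 2 and exact conditional binomial 95% intervals (Clopper-Pearson, scipy 1.17.1). With 1 library per group no test was made. DESeq2 1.42.0 size factors, total counts, other thresholds, prior counts and filters, and thinning were alternatives. Calculations were tested on simulated data.

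The contigs and the comparisons were chosen with earlier results of these data known. Named contigs were the 2 most abundant of the set and, for root with over root without nickel and root over shoot without nickel, the 2 highest and 2 lowest ratios among contigs with at least 100 reads in the pair of libraries. Gene lists could not be formed without gene names. The block of contig numbers was located after the data were seen, at the number that best splits contigs into frequent and rare zero counts in shoot with nickel.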

Additional observations from a re-analysis of the deposited data

Results flagged for a closer look

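Both named contigs with the highest root ratio were flagged for a contrast between organs that follows from how they were picked. The rule made every contig of the set low in shoot with nickel. Any of them with a raised root ratio would therefore show the same contrast. The log2 ratio in root was 1.39 for Lhav_v2_contig_37511 and 1.29 for Lhav_v2_contig_6808, whereas both were nearly absent from shoot with nickel by the rule that chose them. In shoot, the nickel treatment and the origin of the library cannot be told apart, so the contrast is not read as a nickel response that differs between organs. With 1 library per group, no such difference was tested.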

How the results depend on the processing

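Of 52 recalculations of 8 counts, shares and medians, 41 stayed within 1.5 times the reported value. For the root and organ ratios only the number of contigs called was scored, and a root count that stayed at 0 was scored as unchanged. Their medians were not scored, and the root median of the set went from -0.15 to -0.0054 by total counts. The 148 contigs became 155 with DESeq2 size factors, 153 with TMM sizes and 142 with libraries thinned to the smallest total, with 146, 146 and 141 of the original contigs among them, and 162 at 1/16, 188 at 1/8 and 140 at 1/64. A minimum of 0.5 CPM gave 227 contigs. A minimum of 5 CPM gave 31, of which 38.7% were at 0 reads and 6.45% in the last block of numbers, with a median level of 15.1 CPM, by construction of more abundant contigs. No contig differed in root under any of the alternatives run with a threshold of 4-fold or more. This says little, since the root log2 ratios of the set ran from -1.35 to 1.39, well short of the size of 2 needed. The 8-fold threshold, intervals from halved counts and smaller sets of contigs could not have added any. At the 2-fold threshold 11 did, 7 higher (4.73%) and 4 lower (2.70%). By size alone, 1.02% of eligible and 10.9% of tested contigs were 2-fold higher, and 1.71% and 7.64% were 2-fold lower. Between organs without nickel, 21 contigs differed 4-fold, 4 did so 8-fold and 65 did so 2-fold. Of the 65, 49 were higher in root (33.1% of the set), against 19.4% of eligible and 26.5% of tested contigs by size alone. The other 16 were lower (10.8%), against 17.5% and 23.9%. Background shares at 8-fold were not calculated. By total counts 20 were higher and 4 lower in root at 4-fold. The median log2 ratio of the other eligible contigs was -0.12 in root by TMM and 0.028 by total counts, and between organs 0.064 by TMM and 0.27 by total counts, and the set moved with them. The contigs present in shoot with nickel alone numbered 25, and became 52 at 1/16, 15 at 1/64 and 13 at 5 CPM. The 8 named ratios kept their direction in all 56 recalculations. They were picked as the highest and lowest, with log2 ratios from -3.25 to -1.15 and from 1.29 to 4.06. Their kept direction therefore says nothing about the rest of the set. No replicate could be left out without losing a group. No paired analysis was possible because each group had 1 library. Near 1 CPM, depth does not resolve fractions much below 1/32.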

Other observations

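The opposite pattern was also found. At least 1 CPM in shoot with nickel, with each other library at most 1/32 of it, was reached by 25 contigs, from 1.01 to 53.5 CPM, of which 9 had no read in the other 3 libraries. Their levels summed to 282 CPM in shoot with nickel, while the 148 contigs summed to 951 CPM in shoot without nickel. By the same rule 31 contigs were present in root with nickel alone, 27 of them in the last block of numbers, 5 in shoot without nickel alone and 0 in root without nickel alone.

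Whatever the root levels, 213 contigs with at least 1 CPM in shoot without nickel stood at 1/32 of it or less in shoot with nickel. Of these, 153 (71.8%) had at least 1 CPM in both root libraries, 25 in 1 of them and 35 in neither. In the opposite direction, 136 contigs with at least 1 CPM in shoot with nickel stood at 1/32 of it or less in shoot without nickel, of which 57 (41.9%) had at least 1 CPM in both root libraries, 14 in 1 and 65 in neither.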
